A study of Mus musculus with 7 samples.

Results

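The sites described here are crosslink sites from immunoprecipitations of DENR and from IgG controls. They fell within introns of protein-coding transcripts, on the strand of the gene, away from the few genomic windows that collected sites in every DENR library. They were chosen by measured values in one respect: a 2000-nt window with 10 or more sites outside ribosomal RNA (rRNA) in each of the 5 DENR libraries counted as dense, and the 66 such windows were left out. Sites in an exon of any gene on the same strand, in tRNA or rRNA genes or on the mitochondrial chromosome were left out as well. This gave 5822 sites at 5244 distinct positions, of 42120 sites listed in all 7 libraries, and 5223 of the positions were listed in a DENR library.

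The libraries were made by individual-nucleotide resolution crosslinking and immunoprecipitation (iCLIP) from NIH3T3 cells, a line of fibroblasts grown out of mouse embryos. Ultraviolet light joins protein to the RNA it touches, and the point where reverse transcription stops marks the crosslinked nucleotide. In 3 libraries the cells were transiently transfected with Denr in a FLAG-Venus-pLenti6 vector (DENR overexpressing, 1 dish each), and in 2 libraries they were not transfected and endogenous DENR was pulled down from 6 dishes, in both cases with an antibody against DENR. The other 2 libraries were immunoprecipitations with IgG, whose cells the labels do not describe further. Each site carries a score, a whole number that is the height of the site. Only sites past the caller's threshold are listed, so library depth is unknown. The labels do not state that replicates came from separate cultures, and p-values then measure the spread between these libraries, which may be technical.

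DENR, together with its partner MCTS1, acts on the small ribosomal subunit and helps ribosomes to resume scanning and initiate again after they have translated an upstream open reading frame. That work takes place on spliced mRNA in the cytoplasm. Introns, by contrast, are transcribed in the nucleus, bound by the spliceosome and other nuclear proteins at both ends, and mostly degraded soon after they are cut out. RNA abundance was not measured here, so a site's height reflects the amount of RNA as well as its contact with protein.

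Few letters of these sites could be shown, because they lie in introns and the sequence tables at hand cover transcripts and promoters. For 79 of the 5223 positions the surrounding 25 bases could be read from a GENCODE M21 transcript of the other strand or from a RefSeq promoter window (mouse build GRCm38, equivalent to mm10). The windows below belong to the positions, among these, that were listed in both overexpressing and non-transfected cells with at least 1 score of 2 in each. They are written 5′ to 3′ on the strand of the host gene, with the listed nucleotide in capitals.

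Plekha1, chr7:130866253-130866277, plus strand: gatcccggtggcGacgcctgtcgga
Zfp467, chr6:48445124-48445148, minus strand: ggagggcaaggaCtcggggaggccc
Rnf128, chrX:139610544-139610568, plus strand: tctcccagccacCtctacccccagc
Susd3, chr13:49248301-49248325, minus strand: ctccaggtgtccAatcccacttctg
Ugp2, chr11:21370593-21370617, minus strand: ccggcgaggggcCtcggggtgcggc

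None of these 5 carried T at the listed base. Plekha1, which encodes a phosphoinositide-binding adaptor, was listed at 130866265 with scores of 5 and 7 in DENR overexpressing replicates 2 and 3 and 2 in non-transfected replicate 1. Zfp467, a zinc finger protein gene, was listed at 48445136 with scores of 3 and 2 in DENR overexpressing replicates 1 and 2 and 2 in non-transfected replicate 2. Over all 79 positions the listed base was T in 37, or 46.8% (exact 95% interval 35.5 to 58.4%), the next base downstream was T in 57.0%, and the remaining bases of the windows were T in 27.6%. Among the remaining, the second base downstream was T in 46.8% as well, and the other bases within 3 nt in 32.9 to 36.7%. T was thus not limited to the listed base and the next. Of the 69 positions listed in 1 DENR library 36 had T at the listed base, and of the 10 listed in 2 or more 1 had. These windows lie near promoters and antisense transcripts, neighbouring positions share bases, and they stand for 1.51% of the positions only.

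The number of intronic sites differed widely between libraries of the same group. DENR overexpressing replicates 1, 2 and 3 had 161, 3201 and 1355 sites. Non-transfected replicates 1 and 2 had 422 and 661 sites, IgG replicate 1 had none and IgG replicate 2 had 22. As a share of all sites listed in the library, this was 4.01% (exact Clopper-Pearson 95% interval 3.43 to 4.67%), 19.8% (19.2 to 20.5%) and 13.3% (12.6 to 13.9%) in the overexpressing libraries, and 9.76% (8.89 to 10.7%) and 9.20% (8.54 to 9.89%) in the non-transfected ones. The non-transfected libraries thus lay between the overexpressing ones, which spread widely (12.4% ± 7.95, SD, n = 3, against 9.48% ± 0.396, n = 2). These intervals cover counting error only.

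**Figure D1:**
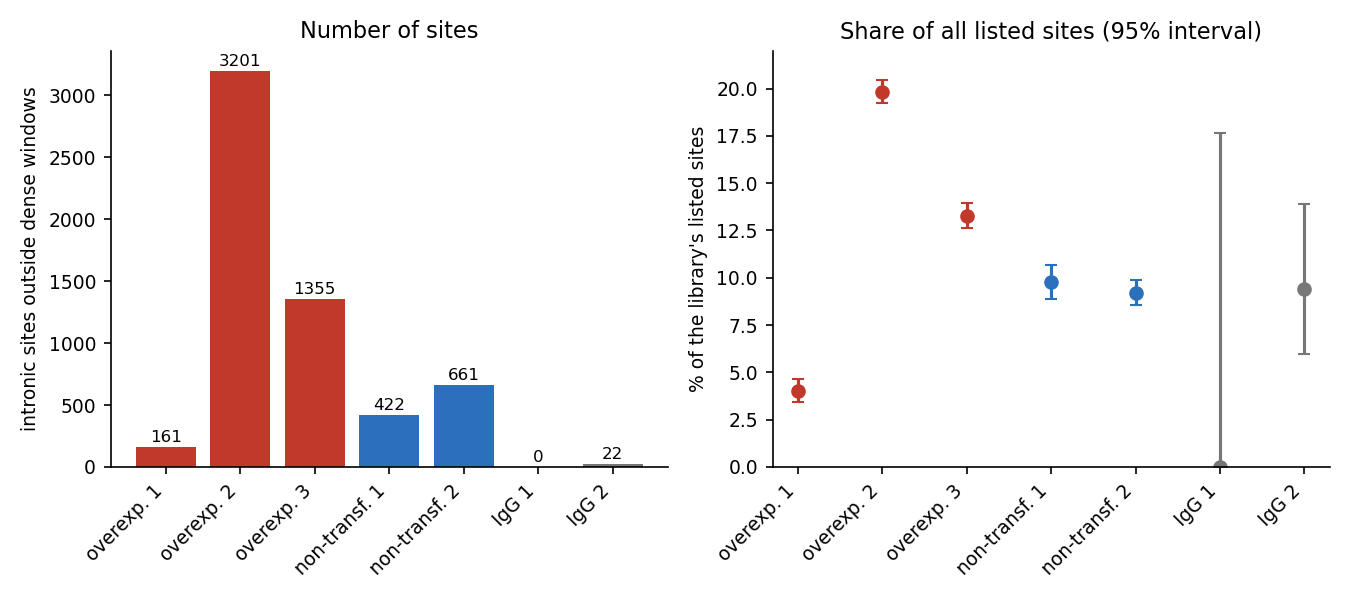
Number of intronic sites outside dense windows in each library (left) and their share of all sites listed in that library, in percent (right; error bars, exact 95% intervals). Red, DENR overexpressing; blue, non-transfected; grey, IgG. The overexpressing libraries span 4.01 to 19.8%, on both sides of the non-transfected libraries at 9.76 and 9.20%.

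The sites were low. Scores of 1 or 2 made up 91.9%, 81.2% and 74.4% of the intronic sites in the overexpressing libraries and 82.2% and 87.3% in the non-transfected ones. The mean score of an intronic site was between 1.66 and 2.38 in the 5 DENR libraries, and that of all listed sites between 3.80 and 9.65. Intronic sites therefore held a smaller part of the summed score than of the sites, from 1.09% in DENR overexpressing replicate 1 to 5.10% in non-transfected replicate 1. Scores of 10 or more were reached by 1, 53 and 15 sites in the overexpressing libraries and by 3 and 10 in the non-transfected ones.

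Where a site could be assigned to a strand of a gene without ambiguity, it lay almost always on the transcribed strand. Counting introns and sites that no gene on the other strand overlaps, 154, 3023 and 1286 sites were on the strand of the gene in the overexpressing libraries against 0, 28 and 17 on the opposite strand. In the non-transfected libraries the numbers were 407 against 4 and 633 against 5. The share on the gene's strand was 98.7 to 100% in all 5 libraries. Among positions listed in 2 or more DENR libraries it was 97.2% (348 against 10), and the positions in 4 or 5 libraries, 44 and 16 of them, were all on the gene's strand.

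Outside the dense windows, introns held more sites than the exons of protein-coding transcripts, in counts not scaled to length. The introns add up to 942 Mb over the 20384 genes that have one, and the length of the exons was not counted. No preference per base can therefore be read from these shares. Of the sites in introns or exons, 61.5%, 72.8% and 58.1% were intronic in the overexpressing libraries and 71.8% and 64.1% in the non-transfected ones. The groups overlapped (64.1% ± 7.73, n = 3, against 67.9% ± 5.41, n = 2; exact permutation test, two-sided, p = 0.6). In IgG replicate 2 the intronic share was 88.0%, from 22 intronic and 3 exonic sites.

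Most positions were seen once. Of the 5223 positions in the DENR libraries, 4863 (93.1%) were listed in 1 library, 221 in 2, 77 in 3, 46 in 4 and 16 in all 5. The rule itself limits these numbers, since windows crowded in every library were removed. They also rest on the longest lists: without DENR overexpressing replicate 2 there were 2355 positions, 164 of them in 2 or more libraries. When DENR overexpressing replicate 3 was left out instead, 231 were in 2 or more. Without DENR overexpressing replicate 1, the list with the fewest sites, 47 positions were in all the other libraries, and without non-transfected replicate 1 25 were. Between 70.4 and 89.6% of a library's intronic sites were in no other DENR library, lowest in non-transfected replicate 1 and highest in DENR overexpressing replicate 2, which has the most sites. Of the intronic positions of DENR overexpressing replicate 1, 26.1% were also in DENR overexpressing replicate 2, where they made up 1.31%. The 2 non-transfected libraries shared 54 positions, 12.8% of the shorter and 8.17% of the longer list.

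The shared positions had the higher mean score in every library. Sites in no other DENR library had mean scores of 1.40, 1.79 and 2.06 in the overexpressing libraries and 1.67 and 1.63 in the non-transfected ones, and none scored above 14. Sites listed in another DENR library had mean scores of 2.30, 6.15 and 3.72, and of 2.74 and 3.30. A higher site is also more likely to pass the caller's threshold in another library, so the score and the sharing are not independent measures. Shared positions held 28.5 to 41.9% of the summed intronic score of a library, with 10.4 to 29.6% of its sites.

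**Figure D2:**
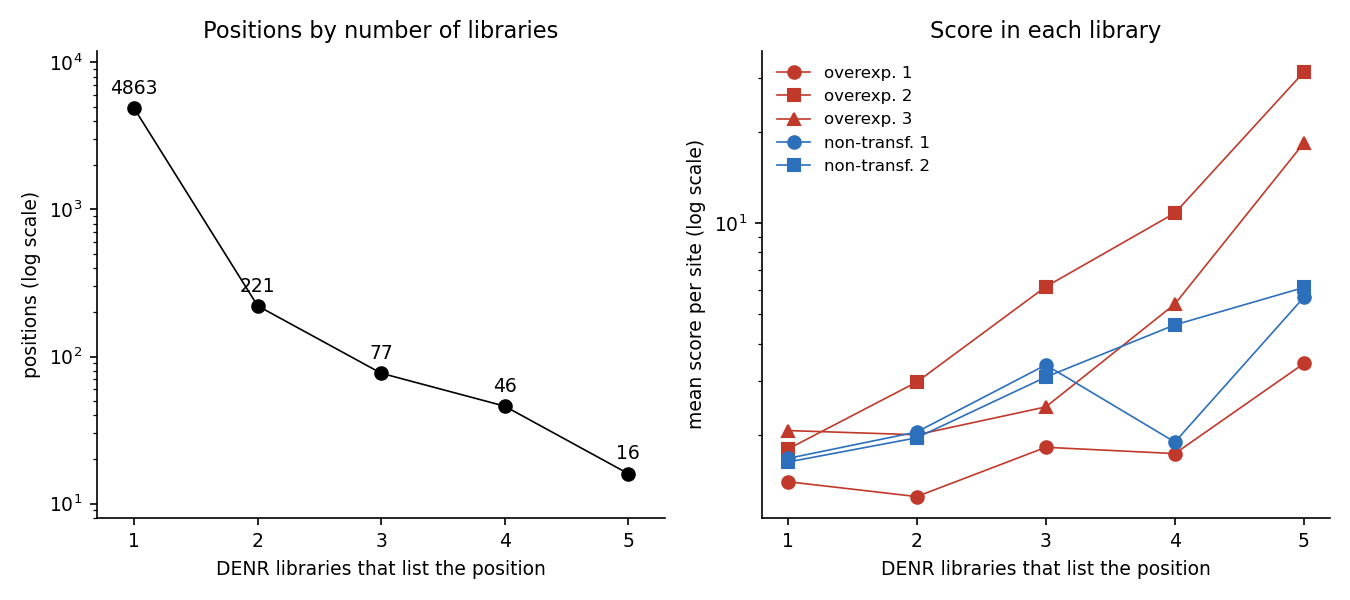
Left, number of intronic positions (log scale) against the number of DENR libraries that list them, from 4863 positions in 1 library to 16 in all 5. Right, mean score per site (log scale) in each of the 5 DENR libraries against the same number; in DENR overexpressing replicate 2 it goes from 1.79 to 31.5.

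The 16 positions listed in all 5 DENR libraries lay in 10 genes. The highest was in intron 8 of Trpm3, which encodes a heat- and steroid-sensitive cation channel, at 22851985 on the plus strand of chromosome 19. Its score was 14, 111 and 70 in the overexpressing libraries and 23 and 19 in the non-transfected ones, the highest score of any intronic site in 4 of the 5 libraries. It stood 4693 nt before the 3′ end of an intron of 63223 nt, and the 11 positions around it covered 11 nt.

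Another 4 of the 16 were neighbouring positions in intron 2 of Wdr92 (chromosome 11, plus strand, 17221332 to 17221335), a gene for a WD-repeat protein that serves in the assembly of ciliary dyneins. The score at 17221334 was 7, 61 and 13 in the overexpressing libraries and 7 and 12 in the non-transfected ones. They belonged to a run of 23 positions within 31 nt, and a second run of 12 positions began 50 nt after its end. In this gene every DENR library had at least 5 sites, and DENR overexpressing replicate 2 had 31.

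Zfp791, a zinc finger protein gene, had the largest number of positions. Its 50 positions lay within 87 nt of intron 3 (chromosome 8, minus strand, 85111887 to 85111973), and 31 of them were shared. The overexpressing libraries had 7, 40 and 31 sites there and the non-transfected ones 16 and 18. The position 85111929 had scores of 2, 35 and 41, and of 9 and 7. An annotated miRNA gene, Gm23388, lies on the same strand, 83 nt from that position. The window that holds this run missed the dense threshold, with 7 sites in its poorest library. It ends at 85112000, shortly after the run. The adjoining window, from 85112001, had 8, 16 and 14 sites in the overexpressing libraries and 11 and 8 in the non-transfected ones. Whether the run counts as dense thus depends on where the fixed windows are cut.

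Sdk1, which encodes an adhesion molecule of synapses, was listed at 141983897 in intron 10 (chromosome 5, plus strand) with scores of 4, 21 and 16 in the overexpressing libraries and 3 and 20 in the non-transfected ones. Iqca, whose product holds an IQ motif, was listed at 90059423 in intron 15 (chromosome 1, minus strand) with scores of 1, 83 and 25, and of 20 and 8. Camk1d, a calcium/calmodulin-dependent kinase gene, had scores of 2, 20 and 23, and of 3 and 3, at 5411824 in intron 3 (chromosome 2, minus strand). These positions were picked because all 5 DENR libraries list them, so their listing in both groups is no further result. In none did the scores of the 2 groups separate, and scores are not scaled to library size.

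Tor1aip2, a gene for a protein of the endoplasmic reticulum that activates torsins, was listed at 156044254 in intron 2 (chromosome 1, plus strand) with scores of 3, 37 and 25 in the overexpressing libraries and 6 and 1 in the non-transfected ones. As a share of the library's summed intronic score this was 1.12%, 0.515% and 0.774% against 0.716% and 0.0733%. The remaining positions in all 5 libraries were in Zfand3, Eva1a and Ica1 and at further bases of Iqca, Wdr92 and Zfp791. Ica1, an autoantigen of pancreatic islets, had a wide and low run: 41 of its 49 positions covered 118 nt, and the one listed in all 5 libraries, 8728853, scored 3 at most.

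**Figure D3:**
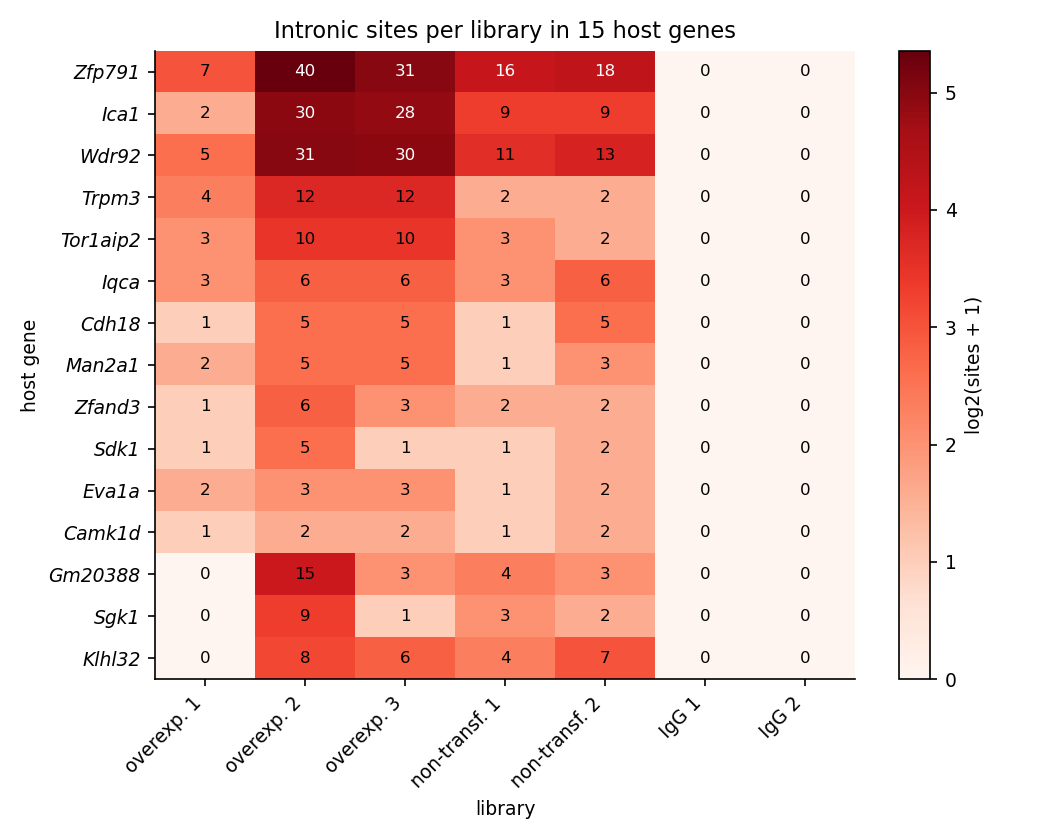
Number of intronic sites in each library (columns) in the 15 host genes with sites in the most DENR libraries (rows), coloured by log2(sites + 1), with the counts printed. The first 12 genes have sites in all 5 DENR libraries, and no IgG library has a site in any of the 15.

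Grouping positions of the DENR libraries that lay within 15 nt of each other gave 3573 runs, of which 2564 were a single position. In 11 runs all 5 libraries had a site, and these held 167 positions with a median span of 11 nt. Another 25 runs were in 4 libraries. At the other end, 3370 runs were in 1 library. Cdh18, a cadherin gene of the nervous system, held runs of 4 and of 3 positions, each in 4 libraries. Its position 23454706 (chromosome 15, plus strand) had scores of 92 and 9 in DENR overexpressing replicates 2 and 3 and 3 and 33 in the non-transfected libraries, and it was not listed in DENR overexpressing replicate 1.

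Of the 62 positions in 4 or 5 DENR libraries, 12 (19.4%) lay within 100 nt of an annotated small RNA gene, all on the same strand. None could lie inside such a gene, since sites in an exon of any gene on that strand were left out. For 11 of these the neighbour was Gm23388 in Zfp791, and for the other, in Cyp7b1, it was the annotated snRNA gene Gm23686, 1 nt away. Among positions in 1 library the share was 1.09% (53 of 4863). The larger share thus rests on a single gene.

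The place of the sites within introns was uneven. For comparison, each site was set against all intron bases of its own host gene outside exons of that strand, counted in the same way. Dense windows and tRNA and rRNA genes were not taken out of these bases. The last 50 nt before the 3′ splice site held 10.1% ± 1.90 (SD, n = 5) of a library's intronic sites, where 2.33% of the host genes' intron bases lie. This was above the intron bases in all 5 libraries, from 8.02 to 11.8%. The first 50 nt after the 5′ splice site held 4.49% ± 1.68 against 2.37%, and each library lay above its own host genes, although by little in non-transfected replicate 2 (2.27% against 2.07%). The excess at this end was not limited to the splice site, since the bases 51 to 100 nt after it held 3.57% ± 1.13 against 1.98% and those from there to 500 nt 18.6% ± 1.80 against 11.1%, both above in all 5 libraries. At 51 to 100 nt DENR overexpressing replicate 1, with 3 sites, was hardly above (1.86% against 1.83%). Before the 3′ splice site the bases more than 100 and up to 500 nt away held 12.2% ± 4.92 against 11.2%, above in 2 of the 5. The stretch from 51 to 100 nt before the 3′ splice site held 1.58% ± 0.883 against 1.97%. Bases more than 500 nt from both ends held 49.5% ± 6.50 of the sites against 69.0%, below in all 5 libraries.

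**Figure D4:**
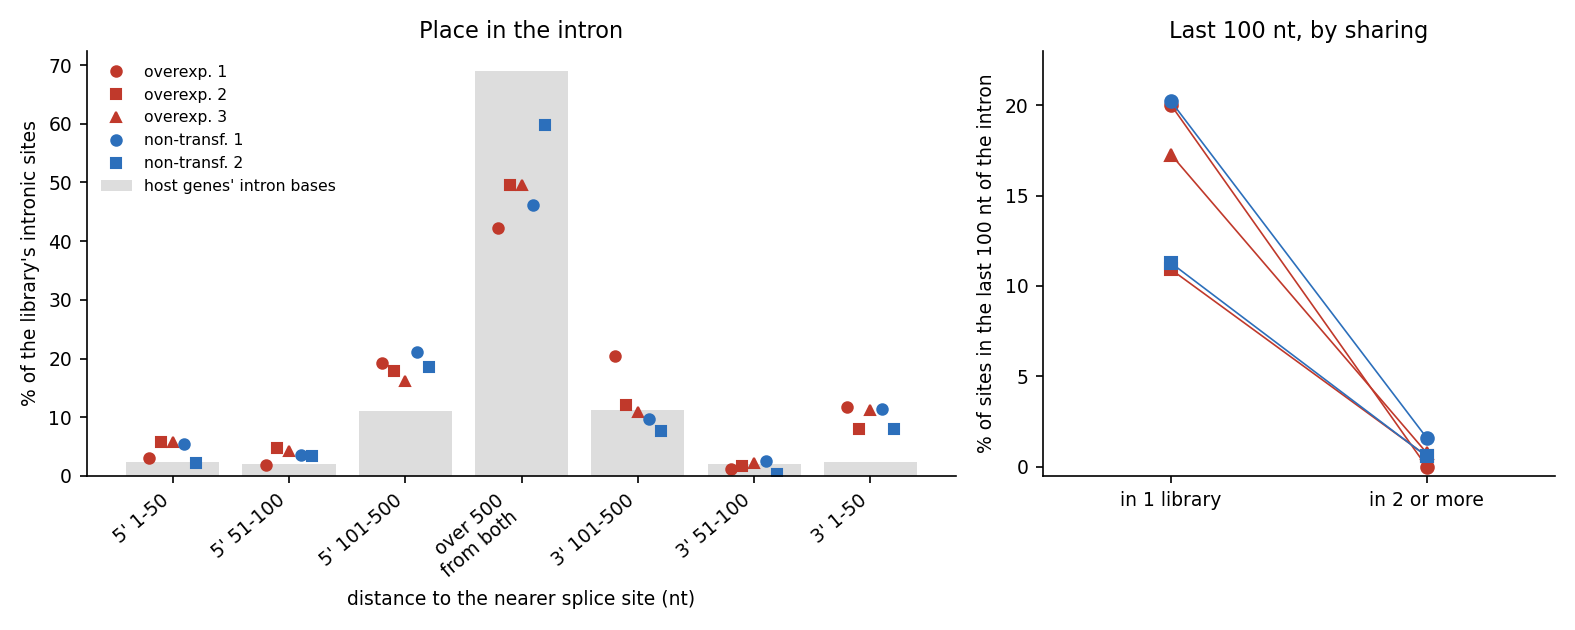
Left, percent of each DENR library's intronic sites (symbols) by distance to the nearer splice site in nt, with the share of the host genes' intron bases in grey. Right, percent of sites in the last 100 nt of the intron, for sites in 1 DENR library and in 2 or more, with 1 line per library; the left ends lie between 10.9 and 20.2% and the right ends between 0 and 1.60%.

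Within those last 50 nt, the bases 21 to 30 nt before the exon held 3.14% of sites on average over the 5 libraries, the bases 1 to 10 nt before it 2.82% and the bases 31 to 40 nt before it 0.924%. The 533 positions in the last 50 nt were spread over 371 genes, with 9 at most in a gene. Those 9 were in Col1a2, a chain of type I collagen, all in 1 library. Col1a1, the other chain, had 6 in 4 introns and in 3 libraries, and Col3a1, the chain of type III collagen, had 6 in 5 introns and in 2 libraries. Srsf11, a splicing factor gene, had 5 in 2 introns.

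The sites near splice sites were those seen once. In DENR overexpressing replicates 1, 2 and 3, 20%, 10.9% and 17.3% of the sites in no other DENR library were in the last 100 nt of the intron, and in non-transfected replicates 1 and 2 20.2% and 11.3%. Of the sites also listed in another DENR library the share was 0%, 0.601%, 0.769%, 1.60% and 0.578% in the same order. The ranges did not overlap, and the same held at the 5′ end, where the first 100 nt held 6.96 to 13.3% of the former and at most 2.69% of the latter. The values for shared sites are not independent between libraries, since a shared position counts in each library that lists it. The 7 shared sites in the last 100 nt were 2 positions, and the 21 in the first 100 nt were 8. All 360 shared positions fell in 194 runs. The introns concerned differed as well: the median intron with a site in no other library was 1586 to 2918 nt long, and that with a shared site 8938 to 14395 nt. Over positions, those in 1 library had 13.2% in the last 100 nt where 5.28% of their genes' intron bases lie, and those in 2 or more had 0.556% (2 of 360) where 2.42% lie.

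First introns held fewer sites than their length. In the overexpressing libraries 13.0%, 18.3% and 19.3% of the sites were in an intron numbered 1, and in the non-transfected ones 18.01% and 18.9%, whereas first introns made up 28.4 to 32.1% of the host genes' intron bases. Positions in 2 or more DENR libraries were in first introns in 25.8% of cases (93 of 360), against 33.2% of bases.

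Overexpressing and non-transfected cells were compared in 5 measures of these sites by two-sided exact permutation tests. Only 10 groupings of 3 and 2 libraries exist, which puts the smallest p at 0.2, so that 0.05 was out of reach. The share in the last 100 nt of the intron was 14.3%, 9.84% and 14.1% in overexpressing cells and 14.7% and 8.47% in non-transfected cells (difference 1.16 percentage points, exact p = 0.8). In the first 100 nt it was 4.97%, 11.8% and 11.3% against 9.72% and 6.35% (difference 1.33 points, exact p = 0.6). The difference for first introns was -1.58 points (exact p = 1), that for the share on the gene's strand 0.138 points (exact p = 1) and that for the intronic share of gene sites -3.81 points (exact p = 0.6). All adjusted p (Benjamini-Hochberg over the 5 tests) were 1, and in every measure the groups overlapped.

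The 5223 positions fell in 2837 genes, 13.9% of the 20384 genes with an intron of a protein-coding transcript, and 539 genes (2.64%) had sites in 2 or more DENR libraries. Leaving out DENR overexpressing replicate 2 made the second number 198, and leaving out replicate 3 of that group made it 301. A position in introns of 2 genes, of which there were 61, counted in each. Host genes had a median of 33.7 kb of intron and all genes 14.9 kb. With all genes ordered by intron length and cut into 5 equal groups, the share of hosts went from 2.18% in the group of shortest intron to 25.7% in that of longest, and the density from 2.45 to 0.294 positions per 100 kb of intron. A site in an exon, outside dense windows, was listed for 18.5% of the host genes and for 5.22% of the genes that were no hosts.

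Genes hosting in 2 or more libraries were of different kinds. In 183 of them at least 1 position was shared, and their median intron length was 107 kb. In the other 356 each position was in 1 library only, and the median was 34.4 kb. Exonic sites were listed for 13.1% of the former and 28.4% of the latter. Of the 12 genes with sites in all 5 libraries none had an exonic site, against 7.07% of all genes. At such shares 12 genes would hold few in any case. Among the 15 genes named by the number of libraries, Gm20388 and Sgk1 had no shared position. Gm20388 is an annotated locus with 4209 kb of intron, and its 25 positions were in 4 libraries. Sgk1, a serum- and glucocorticoid-regulated kinase gene, had 9 and 1 sites in DENR overexpressing replicates 2 and 3 and 3 and 2 in the non-transfected libraries. Its 15 positions lay within 2939 nt. Klhl32, a gene of the kelch-like family, had 13 positions of which 8 were shared, and Man2a1, an enzyme of N-glycan processing, 7 of which 5 were shared.

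**Figure D5:**
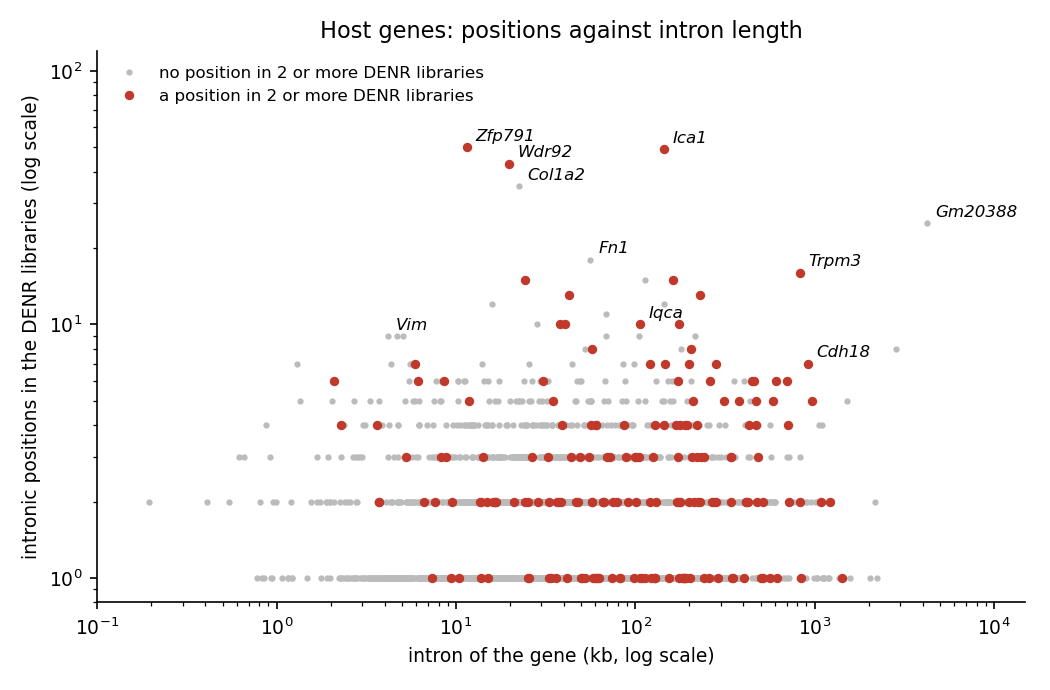
Number of intronic positions in the 5 DENR libraries (log scale) against the length of intron in the gene (kb, log scale), 1 point per host gene. Red, genes with a position in 2 or more DENR libraries; grey, genes with none. Col1a2 has 35 positions in 22.5 kb with none shared, whereas Cdh18 has 7 in 919.8 kb with 5 shared.

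Of 18 fibroblast marker genes 11 (61.1%) held an intronic site in a DENR library, against 13.9% of all genes, and 7 held sites in 2 or more libraries, against 2.64%. Their 97 positions gave 13.3 per 100 kb of intron, where the figure over all genes was 0.554. The median of the single genes was 2.85 per 100 kb, against 0 over all genes. DENR overexpressing replicate 2 held 51 of the sites: without it 10 of the 18 genes and 46 positions were left, or 6.29 per 100 kb, with 7.03% of all genes as hosts and 0.250 positions per 100 kb over all genes. Col1a2 had 0, 27 and 7 sites in the overexpressing libraries and 1 and 0 in the non-transfected ones. Fn1, fibronectin, had 0, 6 and 4, and 0 and 8. Col5a1, a chain of type V collagen, had 0, 6 and 5, and 1 and 0, and Col3a1 0, 0 and 7, and 2 and 1. IgG replicate 2 also had 1 site in a gene of this list, Col5a2, with a score of 2. None of the 97 positions was listed in 2 libraries, but of all intronic positions 93.1% were in 1 library only. In the 7 genes with sites in 2 or more libraries, different libraries thus marked different nucleotides.

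Of 10 hepatocyte markers and 8 blood cell markers none held an intronic site, over 257 kb and 377 kb of intron. With 13.9% of all genes as hosts and 0.554 positions per 100 kb, lists of this size would hold few sites in any case. Of 10 neuron markers 5 (50.0%) did, a larger share than the 13.9% of all genes, with 9 positions in 7146 kb or 0.126 per 100 kb, a lower density than the 0.554 over all genes. Rbfox3, a splicing regulator of mature neurons, and Syt1, the calcium sensor of synaptic vesicles, each had 1 position that was listed in 2 or more libraries. Rbfox3 had 0, 2 and 1 sites in the overexpressing libraries and 1 and 0 in the non-transfected ones.

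Of 46 genes for splicing factors and nuclear RNA-binding proteins, 23 (50.0%) were hosts, against 13.9% of all genes. They held 62 positions, none shared, where 93.1% of all intronic positions were in 1 library only. Their density was 4.79 per 100 kb against 0.554 over all genes, and the median of the single genes was 0.347. Without DENR overexpressing replicate 2 there were 17 hosts and 29 positions. Rbfox2, a splicing regulator, had 9 positions, all in DENR overexpressing replicate 2. Ptbp1, which binds polypyrimidine tracts, had 7 in 5.54 kb of intron, with 0, 4 and 1 sites in the overexpressing libraries and 0 and 2 in the non-transfected ones. Hnrnpm, an hnRNP protein, had 6 and Srsf11 5. Intronic sites were thus listed for this list in all 5 libraries, with 1, 33 and 17 sites against 7 and 4.

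Of 32 genes of adhesion and the actin cytoskeleton, 17 (53.1%) were hosts, against 13.9% of all genes, with 48 positions and 0.836 per 100 kb against 0.554. Leaving out DENR overexpressing replicate 2 gave 12 hosts and 20 positions. Myh9, non-muscle myosin heavy chain, had 11 positions, all in DENR overexpressing replicate 2. Itga5, the fibronectin receptor subunit, had 6, and Flnc and Tns1, which link actin to adhesions, 4 each. Of 38 translation initiation factor genes, 11 (28.9%) were hosts, against 13.9%, with 22 positions and 2.20 per 100 kb against 0.554, and the median of the single genes was 0. When that library was left out there were 7 hosts and 11 positions. Of the 22 positions 9 were in Eif4g2, a scaffold of non-canonical initiation, which had 0, 7 and 2 sites in the overexpressing libraries and 0 in both non-transfected ones. Eif4b, a cofactor of the helicase eIF4A, and Eif3a and Eif3l, subunits of eIF3, had 2 each.

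Of 19 reinitiation factor and clock genes with an intron, 6 (31.6%) were hosts, against 13.9% of all genes, with 7 positions in all and a density of 0.506 per 100 kb, close to the 0.554 over all genes. Without DENR overexpressing replicate 2 there were 2 hosts. Rora, a nuclear receptor of the clock, had 2. Arntl, which encodes the activator BMAL1, Per2, a repressor of the clock, and Denr itself had 1 each. The list had 0, 5 and 1 sites in the overexpressing libraries and 0 and 1 in the non-transfected ones. The part of intron length and expression in the counts of these lists was not tested.

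The IgG control gave few such sites. They made up 9.40% of all sites listed in IgG replicate 2 (exact 95% interval 5.99 to 13.9%), against 9.76 and 9.20% in the non-transfected libraries. In IgG replicate 2 they held 8.29% of the summed score, against 1.09 to 5.10% in the DENR libraries. Where no gene overlaps on the other strand, 20 were on the gene's strand and 0 on the opposite one. All 22 were in replicate 2, with scores of 1 in 8 and of 2 in 14, in 17 genes. Only 1 of the 22 (4.55%, exact 95% interval 0.115 to 22.8%), in Arid4b, was at a position listed in a DENR library, and 2 were within 15 nt of one. For comparison, 70.4 to 89.6% of a DENR library's intronic sites were in no other DENR library, so little overlap was common to these sites. Of the 231 other sites of the 2 IgG libraries, 98.3% (95.6 to 99.5%) were at a position listed in a DENR library. Of the 17 genes 11 also held an intronic site in a DENR library, as did 13.9% of all genes. None of the 360 positions in 2 or more DENR libraries was listed in an IgG library, although the IgG lists were short, with 19 and 234 sites.

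The windows just outside the dense threshold, with 8 or 9 sites in their poorest DENR library, numbered 5, and those just inside, with 10 or 11, numbered 7. In DENR overexpressing replicate 2 the former had 16 to 42 sites and the latter 22 to 80. None of these windows held a site in an intron of a protein-coding transcript outside exons. Of the former, 1 (chromosome 8, 85112001 to 85114000) adjoins the window that holds the Zfp791 run. Of the 3482 windows with an intronic site of a DENR library as counted here, 11 had sites outside rRNA in all 5 libraries.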

How the data were processed

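The authors aligned reads to mouse build mm10 with Bowtie (Bowtie2 in the submitters' processing notes), which does not align across splice junctions, removed reads that shared a molecular identifier and start, and called sites per library with iCount peaks (100 permutations, flank of 15 nt, false discovery rate of 0.05). The deposited value is a score, signed by strand, not scaled to library size. Track lines state regions separately, the methods state regions as one; 1 list (DENR overexpressing replicate 2) lacks such a line.

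Positions (1-based) were placed on GENCODE M21, with tRNA genes from RefSeq. The pre-rRNA copy on chromosome 17 was left out. A position took the shortest intron that holds it, with that transcript's numbering. Analysis used Python 3.11.15, pandas 2.3.3 and scipy 1.17.1, with exact permutation tests and Clopper-Pearson intervals. Only the functions for membership, sharing, merging and the permutation test were tested on data with known answers. Named were the 15 host genes and 12 positions in the most DENR libraries and, per gene list, up to 4 genes with most positions. The positions and lists were chosen with earlier results of these data known.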

Additional observations from a re-analysis of the deposited data

How the results depend on the processing

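The comparisons of overexpressing with non-transfected libraries had no stable sign. With a minimum score of 2 the difference was -2.10 points for the last 100 nt and 0.437 for first introns, and weighting by score gave -0.154 for the last 100 nt. With lists of equal length it was -1.69 for the last 100 nt, -2.65 for the first 100 nt, 1.91 for first introns and -0.0791 for the strand. Leaving out single libraries gave -1.95 to 4.27 for the last 100 nt, -0.349 to 3.53 for the first 100 nt, -2.77 to 0.340 for first introns, -0.233 to 0.420 for the strand and -8.16 to 0.0223 for the intronic share. As a replicate block (replicates 1 and 2 of both groups paired, 2 pairs) the differences were 0.481, 0.370, -2.77, 0.420 and -0.791, in the same order. A sign-flip test on 2 pairs gives no p under 0.5, so no threshold could be passed. The numbers do not pair the libraries by the labels, and the deviations from the group means correlated at -0.0298 and -0.0289 over 539 genes.

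Counts moved more. A minimum score of 2 left 3215 positions, 209 in 2 or more DENR libraries and 7 in all 5, and lists of equal length left 921, 106 and 10, with 105 genes hosting in 2 or more. Merging within 15 nt left 161 in 2 or more and 3 in all 5. Dense windows from 5 or from 20 sites gave 9 or 31 positions in all 5. Counting positions within 5 nt as shared gave 613 and 86, and within 15 nt 637 and 118. Of the genes hosting in 2 or more libraries 356 had no shared position. Without single libraries the counts were 2355 to 5108 positions, 164 to 356 in 2 or more, 16 to 47 in all the remaining and 198 to 511 genes. The counts of the gene lists without DENR overexpressing replicate 2 were chosen after seeing the data. Of the 114 other alternatives 79 kept the direction or stayed within 1.5 times. The base at the crosslink, base composition, repeats and matches to other RNAs were not run over all positions, since genome sequence was not used here. The depth of the libraries is unknown.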
